A study of Mus musculus with 8 samples.

Results

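Glycolysis and hypoxia response genes are the enzymes and transporters that turn glucose into lactate together with the hypoxia-inducible factors (HIF) and genes these factors are known to drive. The members were listed by symbol for their known roles, but with earlier results of these data known. Every entry of the count table with one of the 37 symbols was taken. All 37 were found, and since Aldoa has 2 entries they make 38 of the 54532 genes counted.

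The tumors grew from 4T1-FLuc, a mouse triple-negative breast cancer line that carries firefly luciferase, injected under the skin of female BALB/cJ mice aged 6 weeks. In the treated group mAb-DXd/IMQ went into the vein in 5 courses of 16 mg/kg, spaced 4 days apart, and the control group got saline, which a second label field calls PBS. The conjugate is a humanized antibody against CD276 that carries the TOP1 inhibitor DXd and an imidazoquinoline (IMQ) that stimulates TLR7 and TLR8. Tumors were taken at the endpoint, when the study reports far smaller tumors after mAb-DXd/IMQ than after saline, with extensive tumor cell death on stained sections. Size and cell death go with the treatment, so their part in the values below cannot be told apart from it. Poly-A RNA was sequenced from mixed tumor tissue, and each group has 4 samples. The labels number these samples without naming a mouse or a sequencing batch, so p-values measure only the spread between them. Reads assigned to genes totaled 49398150, 45019927, 56388627 and 69582375 in saline samples 1 to 4, and 51625237, 46196237, 42965317 and 34591912 in mAb-DXd/IMQ samples 1 to 4. The mean totals did not differ beyond the spread between samples (difference -11252594.0, two-sided exact permutation test, p = 0.171), and without saline sample 4 the difference was -6424225.6. A count of 3, taken here as the floor, corresponds to between 0.0431 and 0.0867 CPM, depending on the sample's total, and covers counting error only. The lowest count of any member in any sample was 62, so every member lay well above that floor.

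In glycolysis a cell splits glucose into pyruvate and can regenerate the needed cofactor without oxygen by turning pyruvate into lactate, which it then exports. When oxygen is plentiful, prolyl hydroxylases of the Egln family mark the alpha subunit of HIF for breakdown through the VHL complex. When oxygen falls, the alpha subunit persists, joins its partner Arnt and drives glucose transporters, glycolytic enzymes, angiogenic factors and its own hydroxylases, a program that is commonly active in poorly perfused solid tumors. Much of this control acts on protein, which was not measured here.

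The question was whether treated tumors differed from saline tumors in these genes. Most members were lower in the mAb-DXd/IMQ samples, by modest amounts, and no member passed across all genes in the edgeR fit described below. Of the 38 entries, 29 (76.3%) had a log2 fold change below 0, against 47.4% of the 18511 genes tested. Without saline sample 1 it was 25 of 38, against 46.8% of tested genes, and without mAb-DXd/IMQ sample 3 it was 24 of 38, against 48.6%. The median member log2 fold change was -0.22, between -0.72 for Hk2 and 0.36 for the second Aldoa entry, and the median over all tested genes was 0.02. The groups did not overlap in 6 members (15.8%), Hk2, Aldoc, Kdm3a, Hk1, Arnt and Pfkm. In all of them every mAb-DXd/IMQ sample lay below every saline sample. Among all tested genes the groups did not overlap in 13.1%, with 7.1% lower and 5.97% higher, so the members' share without regard to direction is near that background while their direction is one-sided. Fewer cells of a type and less RNA per cell cannot be told apart in mixed tissue.

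Counts were compared with edgeR's quasi-likelihood F test after TMM normalization, and a gene passed at a Benjamini-Hochberg FDR under 0.05 with an absolute log2 fold change above 0.58. Of the 18511 tested genes 197 passed (1.06%), 101 higher (0.546%) and 96 lower (0.519%). In this fit none of the 38 members passed, and none reached the FDR alone. Among the members 8 (21.1%) had an unadjusted p under 0.05 in this test, against 18.9% of tested genes. All 8 had log2 fold changes below 0, and 1813 of the 18511 tested genes had such a p with a log2 fold change below 0. DESeq2 passed 1 member, Hk2, beside 787 of the 18511 tested genes, and limma-voom passed 0, beside 174. In edgeR Hk2 also passed with library size only, without a filter, with 1 CPM in 4 samples and with the newer quasi-likelihood method. Genes past the thresholds in these fits numbered 194, 358, 233 and 291 in that order. With upper quartile factors the genes past the thresholds split into 145 higher and 73 lower. The number of genes past the thresholds depended on single samples: it was 111 without saline sample 2, 10 without saline sample 3 and 11 without saline sample 4. It was 76, 88 and 12 without mAb-DXd/IMQ samples 2, 3 and 4. The members with an unadjusted p under 0.05 numbered 18 of 38 without mAb-DXd/IMQ sample 1, beside 4128 of 18930 tested genes, and 5 of 38 without mAb-DXd/IMQ sample 2, beside 3144 of 18932. With the replicate number as a block 12 of 38 members had such a p, beside 2859 of 18511 tested genes. Upper quartile factors gave 5 of 38, beside 3600 of 18511. The median member log2 fold change was -0.11 without saline sample 1 and -0.11 without mAb-DXd/IMQ sample 3.

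**Figure D1:**
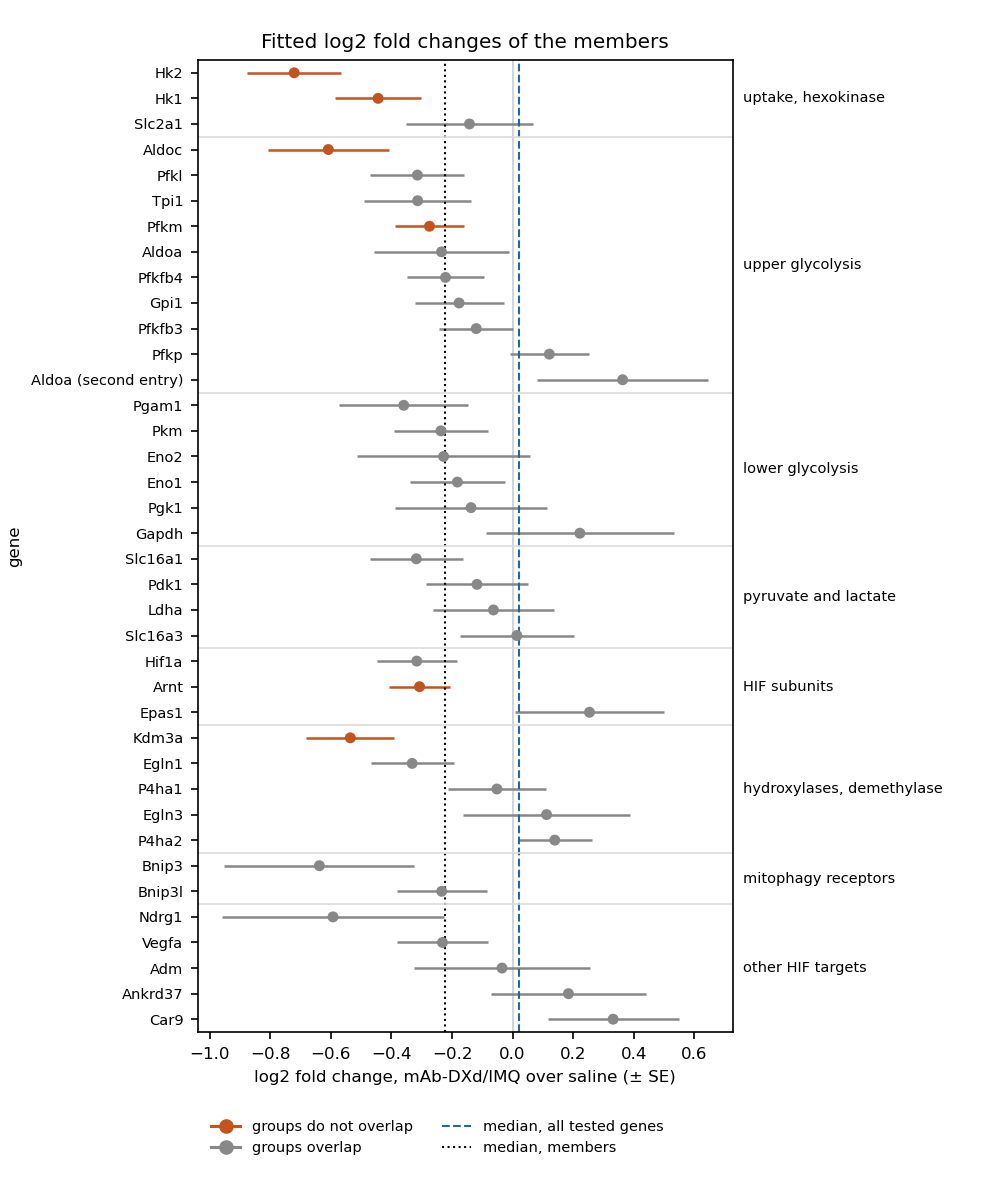
Fitted log2 fold changes of the 38 member entries, mAb-DXd/IMQ over saline, as points with bars of 1 SE, ordered by role on the vertical axis. Most points lie left of 0 and around the members' median of -0.22 (dotted line), while the median of all tested genes is 0.02 (dashed line).

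The lower values were not spread evenly over the samples. Relative to the saline mean, the median member stood at log2 values of 0.21, -0.01, -0.13 and -0.13 in saline samples 1 to 4, and at 0.01, -0.26, -0.55 and -0.25 in mAb-DXd/IMQ samples 1 to 4. Saline sample 1 was high and mAb-DXd/IMQ sample 3 was low, while mAb-DXd/IMQ sample 1 lay at about the saline mean. Among the tested genes with a mean of at least 10 CPM the median stood between -0.0083 and 0.0022 in the saline samples. It stood at 0.0150, -0.0306, -0.0745 and -0.0773 in mAb-DXd/IMQ samples 1 to 4. Of the 38 members 27 had their lowest value in mAb-DXd/IMQ sample 3, which was also the lowest sample for 23% of the 10291 tested genes with a mean of at least 10 CPM. Saline sample 1 held the highest value of 21 members, against 17.0% of those genes. The highest sample was a median of 1.93 times the lowest among members and 1.6 times among those genes. Without saline sample 1 or without mAb-DXd/IMQ sample 3 the members' median log2 fold change was -0.11 in each case.

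**Figure D2:**
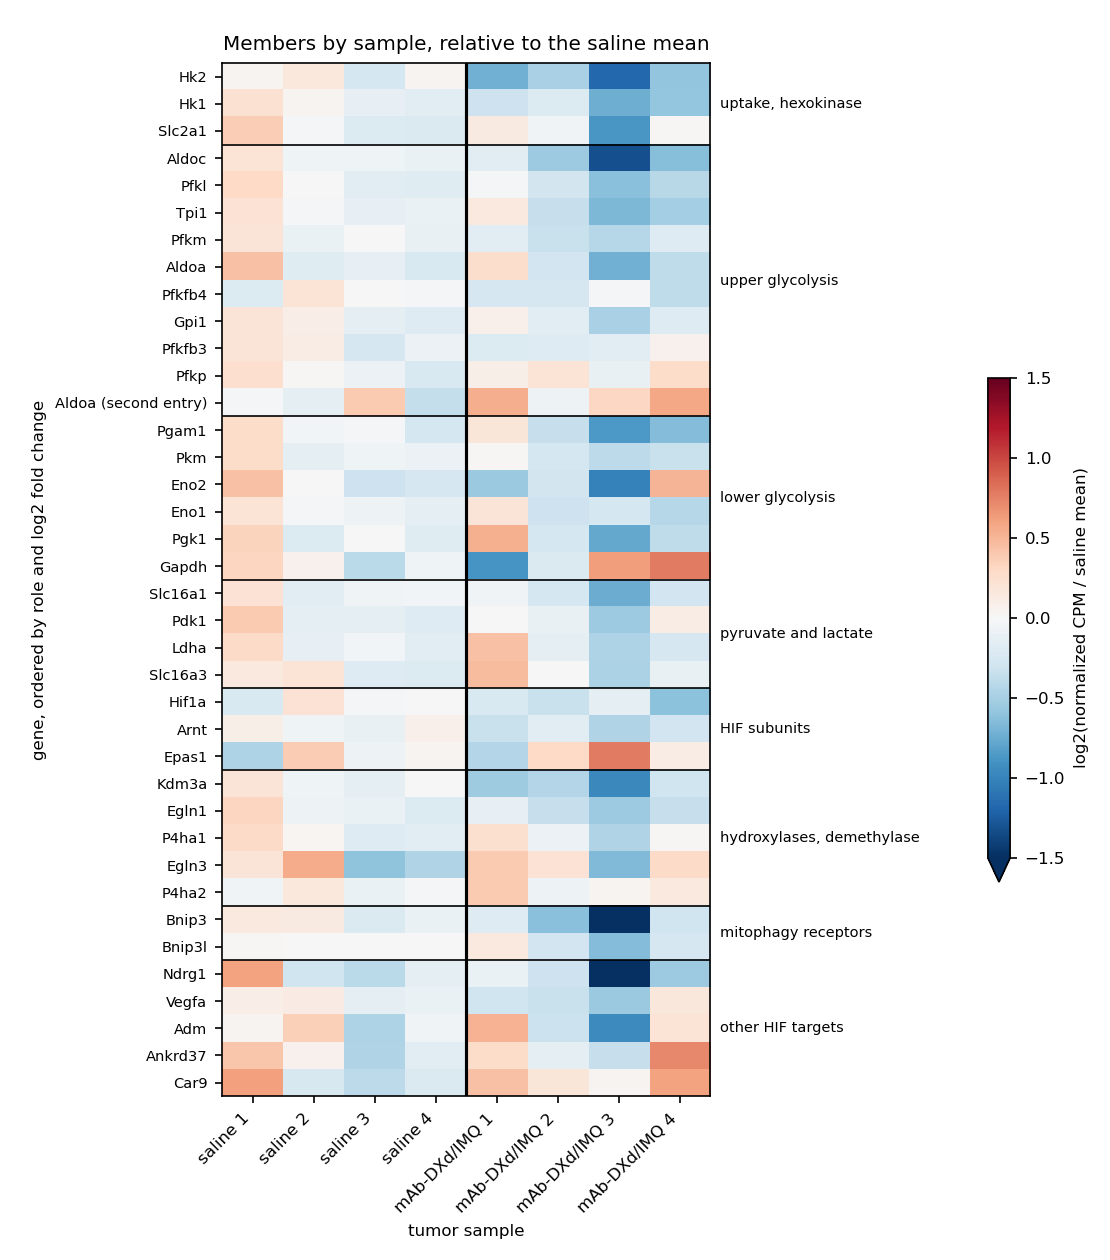
Normalized CPM of each member in each of the 8 samples as log2 of its ratio to the saline mean (blue lower, red higher), with members ordered by role and log2 fold change. mAb-DXd/IMQ sample 3 holds the lowest value of 27 members and saline sample 1 the highest of 21, and Gapdh and Epas1 do not follow that pattern.

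Levels can be compared between genes only per length, here as normalized CPM per kb of merged exons. Phosphoglycerate kinase Pgk1, pyruvate kinase Pkm, aldolase Aldoa and lactate dehydrogenase Ldha were the most abundant members, with saline means of 372, 358, 349 and 289 CPM per kb. Pgam1, Tpi1 and Eno1 followed at 258, 199 and 150.5 CPM per kb, and Gpi1 came next at 76. The 9 most abundant members, down to Slc16a1 at 69.5 CPM per kb, kept their order in the mAb-DXd/IMQ samples. At the other end were P4ha2 at 6.48, Pfkfb4 at 5.53, Epas1 at 3.44 and, lowest of all, the second Aldoa entry at 1.92 CPM per kb. Within each group the sample values of Pgk1, Pkm, Aldoa and Ldha overlapped, whereas every sample of Eno1 lay above every sample of Gpi1.

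**Figure D3:**
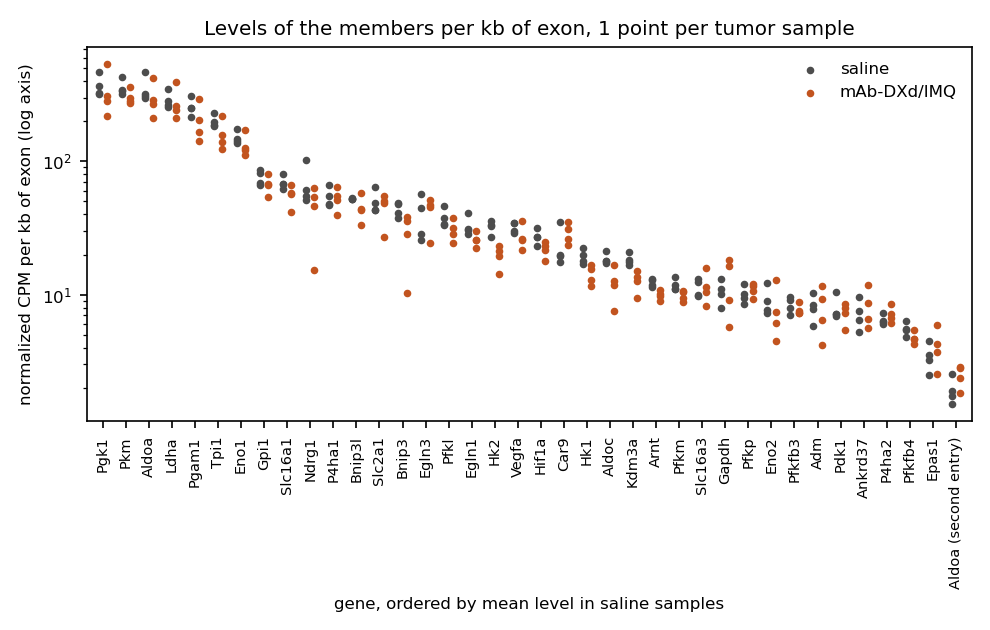
Level of each member in each sample as normalized CPM per kb of merged exons on a log axis, 1 point per sample, ordered by the saline mean. The level falls from 372 CPM per kb for Pgk1 to 3.44 for Epas1 and 1.92 for the second Aldoa entry, and the groups overlap for most members.

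Glucose uptake and hexokinase genes had a median log2 fold change of -0.44 over 3 members. Hk2, the inducible hexokinase that traps glucose in the cell, was at 197, 215, 160.2 and 197 normalized CPM in the saline samples and 117, 137, 85 and 127 in the mAb-DXd/IMQ samples. All 4 mAb-DXd/IMQ samples lay below the lowest saline sample, with sample 3 the lowest. Its means were 192 ± 22.9 against 117 ± 22.7 normalized CPM (SD, n = 4), and Hk2 had the smallest FDR of any member in edgeR (log2 fold change -0.72, SE 0.15, FDR 0.0513), just short of passing at 0.05. Over 19 alternatives the Hk2 log2 fold change stayed between -0.81 and -0.60 and its FDR between 0.00165 and 0.155, and it passed both thresholds in 5 of them. Hk1, the housekeeping hexokinase, was at 192, 169, 151 and 146 normalized CPM in the saline samples and 132, 143, 98.6 and 110.3 in the mAb-DXd/IMQ samples. Its groups did not overlap either (log2 fold change -0.44, SE 0.14, FDR 0.127), with mAb-DXd/IMQ sample 2 close below saline sample 4. Slc2a1, the glucose transporter GLUT1, was at 226, 171, 152 and 151 normalized CPM in the saline samples and 193, 169, 95.4 and 177 in the mAb-DXd/IMQ samples. Only mAb-DXd/IMQ sample 3 lay outside the saline range, and the difference was smaller than its error (log2 fold change -0.14, SE 0.21, FDR 0.764). It was 0.0370 without that sample, -0.25 without mAb-DXd/IMQ sample 1 and 0.0018 without saline sample 1.

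In upper glycolysis, from glucose 6-phosphate to the triose phosphates, 8 of 10 entries had log2 fold changes below 0, with a median of -0.23. Aldoc, the minor aldolase isozyme here, was at 69.8, 58.1, 58.1 and 56.5 normalized CPM in the saline samples and 54.3, 41.6, 24.4 and 38.8 in the mAb-DXd/IMQ samples. The groups did not overlap, although mAb-DXd/IMQ sample 1 came close to the lowest saline sample (log2 fold change -0.61, SE 0.20, FDR 0.136). Pfkm, the muscle isozyme of phosphofructokinase, was at 45.2, 36.9, 39.7 and 36.6 normalized CPM in the saline samples and 35.5, 31.4, 29.4 and 34.7 in the mAb-DXd/IMQ samples. This was the smallest difference among the 6 members whose groups did not overlap (log2 fold change -0.27, SE 0.11, FDR 0.222), and Gm26513, a gene on the same strand, held 7.43% of the 100-base stretches of its transcripts, so its level is uncertain to that extent. Gm26513 itself held 135 counts over the 8 samples. The liver isozyme Pfkl and triose phosphate isomerase Tpi1 each had a log2 fold change of -0.31, with 3 of the 4 mAb-DXd/IMQ samples below every saline sample. Aldoa, Gpi1, Pfkfb4 and Pfkfb3 lay between -0.23 and -0.12, and the platelet isozyme Pfkp was at 0.12. Gpi1 lay between -0.27 without mAb-DXd/IMQ sample 1 and -0.0880 without mAb-DXd/IMQ sample 3. Pfkfb4 lay between -0.29 without mAb-DXd/IMQ sample 3 and -0.15 without saline sample 2. Pfkfb3 lay between -0.20 without saline sample 3 and -0.0530 without saline sample 1. Without saline sample 1 Pfkl was at -0.20, Aldoa at -0.0576 and Pfkp at 0.21. Without mAb-DXd/IMQ sample 1 Tpi1 was at -0.51 and Aldoa at -0.45, and Pfkp was at 0.0582 without saline sample 4 and 0.0741 without mAb-DXd/IMQ sample 4. The highest log2 fold change belonged to the second Aldoa entry, a separate gene record with the same symbol, at 1.52, 1.4, 2.02 and 1.2 normalized CPM in the saline samples and 2.25, 1.46, 1.9 and 2.3 in the mAb-DXd/IMQ samples. These are 62 to 113 counts per sample, the groups overlapped (log2 fold change 0.36, SE 0.28, FDR 0.525), and the main Aldoa entry stood 1016 against 864 normalized CPM.

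**Figure D4:**
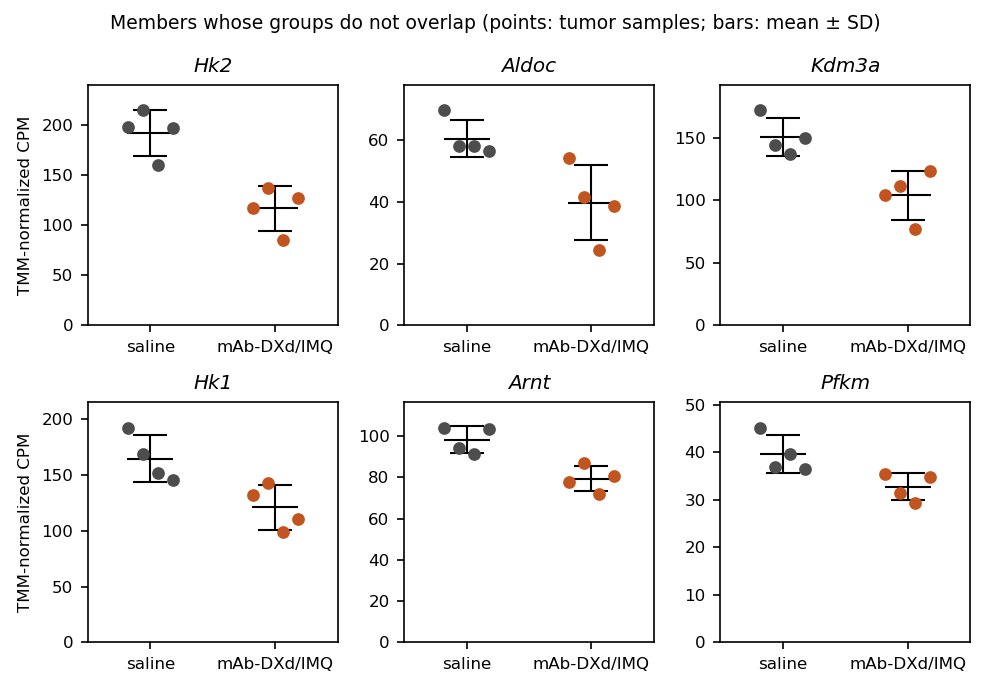
Normalized CPM of the 6 members whose groups do not overlap, 1 point per sample, with the mean and SD of each group as bars and each axis starting at 0. Every mAb-DXd/IMQ sample lies below every saline sample in each panel, from Hk2 at 192 against 117 normalized CPM to Pfkm at 39.6 against 32.7.

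In lower glycolysis, from glyceraldehyde 3-phosphate to pyruvate, 5 of 6 members had log2 fold changes below 0 and none had an unadjusted p under 0.05 in edgeR. Pgam1, a phosphoglycerate mutase, was at 571, 459.9, 462 and 393 normalized CPM in the saline samples and 536, 372, 261 and 302 in the mAb-DXd/IMQ samples. mAb-DXd/IMQ sample 1 lay within the saline range and the other 3 lay below it (log2 fold change -0.36, SE 0.21, FDR 0.393). Without sample 1 or sample 3 of that group the log2 fold change was -0.60 or -0.23. Gapdh, glyceraldehyde 3-phosphate dehydrogenase, was at 54.4, 45.5, 33 and 41.5 normalized CPM in the saline samples and 23.6, 37.5, 67.4 and 75.1 in the mAb-DXd/IMQ samples. It went against the module's sample pattern, with its lowest value in mAb-DXd/IMQ sample 1 and its highest in samples 3 and 4 (log2 fold change 0.22, SE 0.31, FDR 0.748). Leaving out 1 sample moved Gapdh between -0.0201, without mAb-DXd/IMQ sample 4, and 0.46, without mAb-DXd/IMQ sample 1. Pkm, Eno2, Eno1 and Pgk1 had log2 fold changes between -0.24 and -0.14. Single samples moved them both ways. Pkm was at -0.14 without saline sample 1, Eno2 was between -0.58 without mAb-DXd/IMQ sample 4 and -0.0403 without sample 3, Eno1 between -0.33 without mAb-DXd/IMQ sample 1 and -0.10 without sample 4, and Pgk1 between -0.46 without mAb-DXd/IMQ sample 1 and 0.0245 without sample 3. Several of these values are uncertain because near-identical or overlapping genes can share their reads. Of all 100-base stretches of the transcripts, other genes' transcripts held 51.7% for Pgk1 (mostly Pgk1-rs7), 33.9% for Pgam1 (mostly Pgam1-ps2), 20.9% for Gapdh (84 other genes), 20.4% for Eno1 (mostly Eno1b) and 12.3% for Pkm. Eno1b itself held 107974 counts over the 8 samples. For Pkm the closest gene was Gm49759, which overlaps it on the same strand and held 50227 counts. How shared reads were counted is not given in the sources used here, and whether this lowers the Gapdh level was not tested.

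The pyruvate branch had a median log2 fold change of -0.09 over 4 members. Ldha, the lactate dehydrogenase subunit that turns pyruvate into lactate, was at 1165, 879, 933 and 849 normalized CPM in the saline samples and 1301, 862, 695 and 804 in the mAb-DXd/IMQ samples. The highest and the lowest value both came from mAb-DXd/IMQ samples, 1 and 3, so the groups overlapped (log2 fold change -0.06, SE 0.20, FDR 0.902). Slc16a1, the lactate transporter MCT1, was at 359, 275, 297 and 300.4 normalized CPM in the saline samples and 296, 257, 183 and 251 in the mAb-DXd/IMQ samples. Here 3 of 4 mAb-DXd/IMQ samples lay below the saline range (log2 fold change -0.32, SE 0.15, FDR 0.29), and without sample 3 the log2 fold change was -0.20. Slc16a3, the hypoxia-inducible lactate exporter MCT4, was at 66.7, 69.9, 52.8 and 52.3 normalized CPM in the saline samples and 84.2, 60.6, 43.4 and 55.8 in the mAb-DXd/IMQ samples. Its samples 1 and 3 of the treated group spanned more than the whole saline range (log2 fold change 0.01, SE 0.19, FDR 0.98). Pdk1, which inhibits pyruvate dehydrogenase and so keeps pyruvate from oxidation, had a log2 fold change of -0.12. The sign of Slc16a3 turned under limma-voom and without mAb-DXd/IMQ sample 1 (-0.18), that of Ldha without mAb-DXd/IMQ sample 3 (0.0477) and that of Pdk1 without saline sample 1 (0.0372), so none of these directions is firm.

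Of the HIF subunits, Hif1a and Arnt were lower on average and Epas1 was higher. Hif1a, the oxygen-regulated alpha subunit, was at 137, 186, 159 and 160.2 normalized CPM in the saline samples and 137, 128, 146 and 105 in the mAb-DXd/IMQ samples. mAb-DXd/IMQ samples 2 and 4 lay below every saline sample and the other 2 within the saline range (log2 fold change -0.32, SE 0.13, FDR 0.228). Arnt, the constant beta subunit, was at 104, 94.2, 91.3 and 103 normalized CPM in the saline samples and 77.8, 87, 72.1 and 80.7 in the mAb-DXd/IMQ samples. The Arnt groups did not overlap, and its highest sample was 1.45 times its lowest (log2 fold change -0.31, SE 0.10, FDR 0.133). Epas1, which encodes HIF-2 alpha and is typical of endothelial and stromal cells, was at 13.2, 23.8, 17.2 and 18.7 normalized CPM in the saline samples and 13.5, 22.5, 31.3 and 19.8 in the mAb-DXd/IMQ samples. It was the reverse of most members, with its highest value in mAb-DXd/IMQ sample 3 and its lowest in saline sample 1, and the groups overlapped (log2 fold change 0.25, SE 0.25, FDR 0.623). Without mAb-DXd/IMQ sample 3 its log2 fold change was 0.0243, without saline sample 1 it was 0.12, and without mAb-DXd/IMQ sample 1 it was 0.42, so its size depends on single samples.

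Among the oxygen-dependent enzymes, the histone demethylase Kdm3a had the lowest log2 fold change. Kdm3a was at 172, 144, 137 and 150.4 normalized CPM in the saline samples and 104, 112, 77.4 and 123 in the mAb-DXd/IMQ samples. No mAb-DXd/IMQ sample reached the lowest saline sample (log2 fold change -0.54, SE 0.14, FDR 0.085). DESeq2 gave Kdm3a an FDR of 0.0208 with a log2 fold change of -0.54, short of the fold limit, and its FDR ranged from 0.0208 to 0.22 over 19 alternatives. P4ha2, a collagen prolyl hydroxylase subunit, had the highest log2 fold change of this role, at 39, 45.3, 37.9 and 39.6 normalized CPM in the saline samples and 53.2, 38.4, 41.7 and 44.9 in the mAb-DXd/IMQ samples. mAb-DXd/IMQ sample 1 alone lay above the saline range (log2 fold change 0.14, SE 0.12, FDR 0.577), and without it the log2 fold change was 0.0397. Egln1, the main hydroxylase acting on HIF, had a log2 fold change of -0.33 with 3 of 4 mAb-DXd/IMQ samples below the saline range, and of -0.21 without saline sample 1. Egln3 and P4ha1 were at 0.11 and -0.05 and turned to -0.0452 without saline sample 3 and 0.0607 without mAb-DXd/IMQ sample 3.

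Bnip3 and Bnip3l, receptors that direct mitochondria to autophagy, had a median log2 fold change of -0.44 and their lowest values in mAb-DXd/IMQ sample 3. Bnip3 was at 110.0, 109, 85.6 and 93.2 normalized CPM in the saline samples and 87.3, 64.3, 23.3 and 80.8 in the mAb-DXd/IMQ samples. The value in mAb-DXd/IMQ sample 3 was far below all others, and sample 1 overlapped the saline range (log2 fold change -0.64, SE 0.31, FDR 0.30). Without mAb-DXd/IMQ sample 3 the log2 fold change was -0.36. Bnip3l was at 204, 201, 202 and 200.1 normalized CPM in the saline samples and 222, 166, 128 and 169 in the mAb-DXd/IMQ samples. Its saline samples had an SD of 1.52 normalized CPM, while mAb-DXd/IMQ sample 1 lay above and the other 3 below them (log2 fold change -0.23, SE 0.15, FDR 0.428), and leaving out mAb-DXd/IMQ sample 1 or 3 gave -0.39 or -0.12. Other transcripts held 14% of the 100-base stretches of Bnip3l and 6.9% of those of Bnip3, so both are uncertain in the sense given for Pgk1.

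The remaining HIF targets did not share a direction. Ndrg1, a hypoxia-induced stress gene, was at 673, 362, 336 and 405 normalized CPM in the saline samples and 413, 358, 102 and 305 in the mAb-DXd/IMQ samples. It had the widest spread of all members, its highest sample being 6.63 times its lowest, and the groups overlapped (log2 fold change -0.59, SE 0.37, FDR 0.413). Without saline sample 1 or without mAb-DXd/IMQ sample 3 it was at -0.32 or -0.31. Car9, a carbonic anhydrase at the cell surface that is widely used as a hypoxia marker, was at 81.5, 45, 40.5 and 45.9 normalized CPM in the saline samples and 72.2, 60.4, 54.6 and 80.9 in the mAb-DXd/IMQ samples. Saline sample 1 was the highest of all and every mAb-DXd/IMQ sample lay between it and the other 3 saline samples (log2 fold change 0.33, SE 0.22, FDR 0.441). Without saline sample 1 the log2 fold change of Car9 was 0.61 (FDR 0.0743), and without saline sample 3 it was 0.22. Vegfa, the angiogenic growth factor, was at 147, 149, 124 and 128 normalized CPM in the saline samples and 111, 109, 93.1 and 154 in the mAb-DXd/IMQ samples. The lowest 3 values and the highest value all came from mAb-DXd/IMQ samples (log2 fold change -0.23, SE 0.15, FDR 0.441), and leaving out sample 3 or 4 of that group gave -0.14 or -0.39. Ankrd37 was at a log2 fold change of 0.18, and the vasodilator peptide gene Adm was at -0.03 and turned to 0.007 with upper quartile factors. Ankrd37 turned to -0.0386 without mAb-DXd/IMQ sample 4 and Adm to 0.17 without mAb-DXd/IMQ sample 3.

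A ratio between isozymes does not depend on library size, so the share of a gene in the summed CPM per kb of its family was also compared. These 8 shares were tested by two-sided exact permutation over the 70 assignments of samples, with Benjamini-Hochberg adjustment over the 8. The smallest p this exact test can give is 0.0286, and only 5 or more shares at that p would bring an adjusted p below 0.05. No share passed. Pfkp took 16.6, 17.2, 17.1 and 16.2% in the saline samples and 18.1, 22, 21.8 and 23.8% in the mAb-DXd/IMQ samples of the phosphofructokinase family. All 4 mAb-DXd/IMQ samples lay above every saline sample, by 4.66 percentage points in the mean (exact p = 0.0286, adjusted p = 0.114). Its family partners Pfkl and Pfkm went from 37.9 to 30.5 and from 11.9 to 9.8 CPM per kb on average, and Pfkp from 10 to 10.9.

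Aldoc took 4.34, 5.48, 5.27 and 5.5% in the saline samples and 3.81, 4.26, 3.4 and 4.24% in the mAb-DXd/IMQ samples of the aldolases, the lower group being the treated one in every sample (exact p = 0.0286, adjusted p = 0.114). Hk2 took 48.6, 51.9, 48.5 and 52.7% in the saline samples and 46.1, 48.6, 40.3 and 48.1% in the mAb-DXd/IMQ samples of Hk1, Hk2 and Hk3. These groups overlapped narrowly (difference -4.66 percentage points, exact p = 0.0571, adjusted p = 0.152; without mAb-DXd/IMQ sample 3, -2.83 and adjusted p = 0.274), and the mean levels of Hk1 and Hk3 were lower too, at 19.3 against 14.2 and 12.3 against 8.69 CPM per kb. Epas1 took 9.65, 12.4, 10.7 and 11.5% in the saline samples and 9.81, 16.3, 19.2 and 17.3% in the mAb-DXd/IMQ samples of the HIF alpha subunits. The shares of mAb-DXd/IMQ samples 2 to 4 lay above the saline range and sample 1 within it (exact p = 0.114, adjusted p = 0.183). Slc16a3 took on average 14% against 16.8% of the lactate transporters (exact p = 0.114, adjusted p = 0.183). Ldha held 96.2% against 96% of Ldha and Ldhb, and Slc2a1 held 98% against 97.8% of Slc2a1 and Slc2a3, differences smaller than the SD of either group (exact p = 0.60 and 0.771). Eno2 was at 4.61% against 4.32% of Eno1, Eno2 and Eno3, without Eno1b, with mAb-DXd/IMQ sample 4 the highest of all 8 (exact p = 0.943). How reads split between Eno1 and Eno1b bears on this share. The share differences of Ldha, Slc2a1 and Eno2 turned with 1 sample left out. They went to 0.0375 for Ldha without saline sample 1, 0.149 for Slc2a1 without mAb-DXd/IMQ sample 3 and 0.309 for Eno2 without mAb-DXd/IMQ sample 1.

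**Figure D5:**
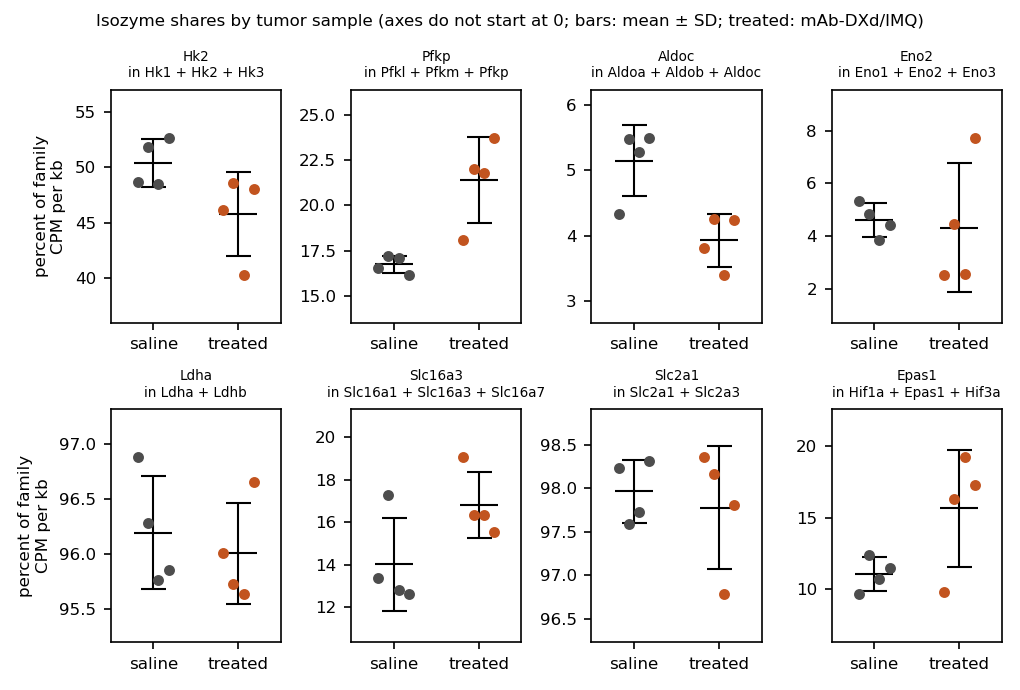
Share of 1 gene in the summed CPM per kb of its isozyme family, in percent, 1 point per sample, with the mean and SD of each group as bars and axes that do not start at 0. The groups do not overlap for Pfkp (means 16.8% and 21.4%) and Aldoc (5.14% and 3.93%).

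HIF binds DNA at hypoxia response elements, whose core is read as ACGTG, with GCGTG as a variant. Both cores were searched on both strands in RefSeq promoters of build GRCm38.p6, from 250 bases before to 50 after each transcription start. Promoters were found for 34 of the 37 symbols, and for genes with several the one nearest the start in the count table was used. Epas1, Ndrg1 and Bnip3l had none in the table. ACGTG occurred in 19 of these 34 (55.9%) and in 6447 of all 32851 promoters (19.6%). GCGTG occurred in 19 of 34 (55.9%) and in 32.4% of all promoters, and either core in 27 of 34 (79.4%) and in 43.8% of all. Ldha held the most, with 5 ACGTG and 2 GCGTG matches. The Ldha promoter used lies 4329 bases from the start in the count table. Those of Hif1a and Ankrd37 lie 6492 and 5857 bases from theirs. Such a match describes letters only, and members were listed partly as known HIF targets.

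Of the members whose groups did not overlap, the 3 with the largest log2 fold changes are shown with their promoters, 5′ to 3′ on the gene's strand, in lower case with both cores, in either orientation, in capitals. The Hk2 promoter lies at chr6:82774405-82774704 on the minus strand, that of Aldoc at chr11:78322823-78323122 on the plus strand and that of Kdm3a at chr6:71632868-71633167 on the minus strand.
Hk2: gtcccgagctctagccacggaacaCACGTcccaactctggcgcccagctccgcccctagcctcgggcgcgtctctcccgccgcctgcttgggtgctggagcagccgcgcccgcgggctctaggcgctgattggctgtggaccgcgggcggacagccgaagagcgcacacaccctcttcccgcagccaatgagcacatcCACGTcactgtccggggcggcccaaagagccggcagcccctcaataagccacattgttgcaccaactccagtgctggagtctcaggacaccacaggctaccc
Aldoc: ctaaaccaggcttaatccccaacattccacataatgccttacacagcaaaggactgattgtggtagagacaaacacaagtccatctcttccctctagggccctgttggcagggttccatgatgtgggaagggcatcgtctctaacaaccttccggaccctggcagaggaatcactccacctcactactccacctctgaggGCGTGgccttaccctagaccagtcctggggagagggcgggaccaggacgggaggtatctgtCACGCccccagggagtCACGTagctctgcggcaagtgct
Kdm3a: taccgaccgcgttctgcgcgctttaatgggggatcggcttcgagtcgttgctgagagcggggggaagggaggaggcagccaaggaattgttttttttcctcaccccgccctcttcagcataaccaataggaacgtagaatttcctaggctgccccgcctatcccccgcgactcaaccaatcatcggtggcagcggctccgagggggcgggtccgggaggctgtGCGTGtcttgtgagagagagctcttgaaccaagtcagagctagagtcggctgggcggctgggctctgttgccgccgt
In Hk2 both matches are ACGTG read on the opposite strand, beginning 226 and 52 bases before the start. In Aldoc a GCGTG begins 50 bases before the start, and a GCGTG and an ACGTG on the opposite strand begin 11 and 27 bases after it. The Kdm3a promoter has 1 GCGTG, beginning 27 bases before the start.

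Further genes of the same pathways were taken from lists that do not hold the members, and with all samples none of them passed in edgeR or limma-voom. Of 41 other glycolysis and pyruvate genes 35 were tested, 23 had log2 fold changes below 0, the median was -0.07 and 7 had an unadjusted p under 0.05. Their groups did not overlap in 4 lower genes and 1 higher gene. Both counts are near the shares over all tested genes, 18.9% at that p and 13.1% without overlap. G6pdx, which opens the pentose phosphate pathway, was at 92.8, 110.3, 104 and 109 normalized CPM in the saline samples and 82, 81.7, 49.1 and 50 in the mAb-DXd/IMQ samples. Samples 3 and 4 of the treated group were the lowest (log2 fold change -0.66, SE 0.18, FDR 0.086), and DESeq2 passed this 1 gene of the list. Bsg, the chaperone that brings lactate transporters to the membrane, was at 416, 405, 389 and 397 normalized CPM in the saline samples and 615, 456, 449 and 495 in the mAb-DXd/IMQ samples. All mAb-DXd/IMQ samples were above the saline samples (log2 fold change 0.33, SE 0.13, FDR 0.201). Gpd2, of the glycerol phosphate shuttle, and Eno4, an enolase with 1.69 against 1.11 normalized CPM, had log2 fold changes of -0.33 and -0.61. Pgk2 was at 0 in all samples.

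Of 43 other HIF targets tested, 0 passed in edgeR and 26 had log2 fold changes below 0. The median was -0.16, and the values ran from -1.01 to 0.85. Unadjusted p-values under 0.05 numbered 13, of which 9 belonged to genes with log2 fold changes below 0. In 5 genes the groups did not overlap, all lower, and the HIF targets given with values below were taken from these 5. Over all tested genes these shares were 18.9% at that p and 13.1% without overlap, 7.1% being lower. Errfi1, an inhibitor of EGF receptor signaling, was at 249, 278, 245 and 386 normalized CPM in the saline samples and 190.0, 204, 192 and 194 in the mAb-DXd/IMQ samples. Saline sample 4 was far above the rest and the 4 treated samples were close together (log2 fold change -0.57, SE 0.15, FDR 0.076). The log2 fold change was -0.53 for the nuclear receptor Rora, -0.41 for Narf and -0.39 for the histone demethylase Kdm4b. Of 16 HIF pathway regulators tested, 0 passed in edgeR, 9 had log2 fold changes below 0, with a median of -0.05 and 3 unadjusted p-values under 0.05. Ep300, a coactivator that HIF recruits, was at 120.2, 129.9, 117 and 121 normalized CPM in the saline samples and 69.8, 97.6, 98.4 and 81.7 in the mAb-DXd/IMQ samples. Elob, a subunit of the VHL complex, was at 117, 112, 117 and 108 normalized CPM in the saline samples and 191, 146, 125 and 146 in the mAb-DXd/IMQ samples. These 2 were the regulators whose groups did not overlap, Ep300 lower (log2 fold change -0.49, SE 0.12, FDR 0.0702) and Elob higher (log2 fold change 0.42, SE 0.13, FDR 0.122). DESeq2 and limma-voom passed 0 genes of either list. Without saline sample 1 edgeR passed 1 of the other HIF targets, Car12.

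Cell type markers show what else differed between the samples, as summed normalized CPM of each list. Epithelial markers, which mark the tumor cells, were present in all samples and summed to 2866, 2105, 2908 and 2638 in the saline samples and 4153, 3197, 2397 and 2449 in the mAb-DXd/IMQ samples. The groups overlapped, all 8 tested genes had log2 fold changes above 0, and Krt18 was the most abundant. Neutrophil markers summed to 228, 88.4, 93.7 and 128 in the saline samples and 36.3, 50.8, 54 and 71.8 in the mAb-DXd/IMQ samples, all treated samples being lower. S100a9 was the most abundant of these, 6 of 8 tested genes were lower, and Csf3r passed (log2 fold change -0.80, SE 0.16, FDR 0.0402). With 1 sample left out, Csf3r passed only when that was mAb-DXd/IMQ sample 1, and it did not pass with upper quartile factors, with library size alone or with the replicate number as a block, with or without the gene length offset. T cell markers summed to 65.9, 98.3, 94.4 and 84.5 in the saline samples and 51.3, 43.3, 26.4 and 38.2 in the mAb-DXd/IMQ samples, again without overlap. All 7 of these genes had log2 fold changes below 0, Cd8a was the most abundant, and Cd8a (log2 fold change -1.22, SE 0.17, FDR 0.0201) and Cd4 (log2 fold change -1.91, SE 0.25, FDR 0.0201) passed. Neither passed without saline sample 3, saline sample 4 or mAb-DXd/IMQ sample 4, nor with the replicate block, with or without the gene length offset. DESeq2 passed 6 of the 7 T cell genes, all but Cd3g, and limma-voom passed 3, Cd4, Cd8a and Cd8b1. Cd8b1 also passed in edgeR with library size only, without a filter and with 1 CPM in 4 samples. It passed there too with the newer quasi-likelihood method and without mAb-DXd/IMQ sample 1. Of the neutrophil genes DESeq2 passed 3, Csf3r, S100a8 and S100a9, and limma-voom passed 1, Csf3r. In edgeR S100a8 and S100a9 passed without a filter and without saline sample 2, and S100a8 also with the gene length offset and with the newer quasi-likelihood method.

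Macrophage markers summed to 920.3, 2949, 1655 and 1915 in the saline samples and 1720.0, 1405, 1475 and 1136 in the mAb-DXd/IMQ samples, with C1qa the most abundant and all 8 genes below 0 on the log2 scale. Endothelial markers summed to 103, 253, 180.3 and 192 in the saline samples and 261, 229.8, 247 and 220.2 in the mAb-DXd/IMQ samples, with Pecam1 the most abundant and all 9 above 0. In both lists the groups overlapped and saline sample 1 was the lowest. With the filter and test given above no gene of either passed in edgeR, where 1 macrophage and 3 endothelial genes had an unadjusted p under 0.05, and none passed in limma-voom. DESeq2 passed Mrc1 and Emcn. In edgeR Mrc1 also passed without a filter, with the newer quasi-likelihood method and without saline sample 1.

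Fibroblast markers summed to 2844, 3842, 6683 and 7129 in the saline samples and 5557, 4284, 7627 and 2874 in the mAb-DXd/IMQ samples, Col1a1 being the most abundant and 4 of 8 below 0. The highest sum was in mAb-DXd/IMQ sample 3 and the lowest in saline sample 1, with mAb-DXd/IMQ sample 4 close above the lowest. Proliferation genes summed to 1035, 746, 1134 and 874 in the saline samples and 1239, 1085, 1217 and 1106 in the mAb-DXd/IMQ samples, Top2a being the most abundant and all 7 above 0. Skeletal muscle markers summed to 517, 64.1, 419.5 and 252 in the saline samples and 380.2, 121, 264 and 319 in the mAb-DXd/IMQ samples, with Acta1 the most abundant, Tnnc2 at 0 and 6 of 9 tested below 0. In both the groups overlapped. Adipocyte markers summed to 33.5, 38, 31.5 and 47.8 in the saline samples and 40, 38.7, 24.6 and 35 in the mAb-DXd/IMQ samples, with Fabp4 the most abundant and all 5 tested below 0. Epidermis markers summed to 261, 54.4, 167 and 121 in the saline samples and 296, 734, 259 and 167 in the mAb-DXd/IMQ samples, with Krt14 the most abundant and all 5 tested above 0. Erythroid markers summed to 17.5, 53.2, 23 and 40.3 in the saline samples and 79.8, 36.2, 61.2 and 47.3 in the mAb-DXd/IMQ samples, with Hbb-bs the most abundant and all 5 tested above 0. The groups overlapped in these 3 lists as well, and no fibroblast, proliferation, muscle, adipocyte, epidermis or erythroid gene passed in edgeR with that filter and scaling or in limma-voom. Unadjusted p-values under 0.05 numbered 2, 4, 0, 0, 1 and 2 in that order, and DESeq2 passed Fap, Bub1 and Lgals7. In edgeR Bub1 passed with upper quartile factors, without a filter and with 1 CPM in 4 samples, and Lgals7 without a filter. The part of cell mixture, and of mAb-DXd/IMQ sample 3 and saline sample 1 in particular, in the members' values was not tested beyond leaving out each sample.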

How the data were processed

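The authors aligned reads and deposited raw read counts per gene and sample, with a length and coordinates for each gene. Their processing notes name HISAT2, HISAT, TopHat2 and mm39, but the coordinates are those of GRCm38: of 54495 identifiers found in GENCODE M21, 98.3% had the same start and end. The counting program and strandedness are not given in the sources used here, so genes that overlap on opposite strands, such as Pfkp and Pitrm1, cannot be told apart where they overlap.

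Counts were analyzed with edgeR 4.0.16 in R 4.3.3. DESeq2 1.42.0 and limma 3.58.1 served as alternatives. The permutation tests were enumerated directly in Python 3.11.15 with numpy 2.4.6, and matplotlib 3.10.9 drew the plots. Genes were kept by filterByExpr (minimum count 10, minimum total 15), which kept all 38 member entries. TMM factors lay between 0.940 and 1.07. mAb-DXd/IMQ was set against saline with the quasi-likelihood F test of edgeR (no covariates), with Benjamini-Hochberg adjustment over all tested genes and the study's thresholds. Standard errors are approximate, from the coefficient and its F statistic. Normalized CPM are counts divided by the TMM-adjusted library size, on the usual CPM scale. Steps were tested on simulated data. No libraries were duplicates.

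The members and lists were chosen with earlier results of these data known. Full values are given for members whose groups do not overlap, the highest and lowest log2 fold change of each role, and Hif1a, Epas1, Arnt, Slc2a1, Ldha, Car9 and Vegfa. Of the other pathway genes, the 2 highest and 2 lowest log2 fold changes are named among those with a mean of at least 1 CPM whose groups do not overlap. Other named genes were chosen after their values were seen. The symbols Ero1a, Tceb1 and Tceb2 matched no gene. Alternatives were other scalings, filters and tests, a gene length offset (a spline with 5 degrees of freedom), a replicate block, no fold limit, other forms of the shares, and leaving out each sample. edgeR's newer quasi-likelihood method was chosen after seeing the data.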

Additional observations from a re-analysis of the deposited data

Results flagged for a closer look

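In 6 of 116 sets of 4 samples, 1 sample lay far from the other 3. A set holds the values of 1 group for a member, an isozyme share, the summed markers of a list or the total counts. The measure is the gap between that sample and its nearest neighbor, divided by the whole range of the group. Chance flags about 1 in 20 groups. Saline sample 1 was the highest in 4 of the 6 sets.

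The gap was 0.922 of the range for Pdk1, where saline sample 1 was at 80.8 normalized CPM and the next at 56.1. It was 0.882 for Aldoc, with saline sample 1 at 69.8 and the next at 58.1. For Aldoa it was 0.874, with that sample at 1373 and the next at 931. For Car9 it was 0.869, with 81.5 and 45.9.

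In the treated group, Pfkfb3 was at 66.5 normalized CPM in mAb-DXd/IMQ sample 4 and at 56.7 in the next, a gap of 0.844 of the range. The share of Slc16a3 among the lactate transporters was 17.3% in saline sample 2 and 13.4% in the next, a gap of 0.830.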

How the results depend on the processing

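The direction of most members did not depend on the processing. Over 11 alternatives that kept every sample, 414 of 418 recomputed member log2 fold changes had the same sign. The other 4 were small: Slc16a3 at -0.0096 with limma-voom, -0.0147 with the replicate block and -0.0164 with the replicate block and gene length offset, and Adm at 0.0070 with upper quartile factors. When a sample was left out, 285 of 304 kept their sign. The sign turned in 10 genes, here with their lowest and highest log2 fold change: Slc2a1 (-0.25 to 0.0370), Pgk1 (-0.46 to 0.0245), Gapdh (-0.0201 to 0.46), Pdk1 (-0.19 to 0.0372), Ldha (-0.28 to 0.0477), Slc16a3 (-0.18 to 0.15), P4ha1 (-0.16 to 0.0607), Egln3 (-0.0452 to 0.35), Adm (-0.29 to 0.17) and Ankrd37 (-0.0386 to 0.35). Leaving out 1 sample moved the log2 fold change by more than 1.5 times, or turned it, in 30 of 38 entries. In all, 28 of 38 members kept their sign throughout. Of 88 recomputed isozyme share differences 84 kept their sign. Those that turned were Eno2 (-1.42 to 0.309 percentage points with a sample left out), Ldha (-0.408 to 0.0375) and Slc2a1 (-0.376 to 0.149).

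Members past the thresholds numbered 1, Hk2, with library size only, without a filter, with 1 CPM in 4 samples, in DESeq2 and with edgeR's newer quasi-likelihood method, and 0 in the others, including limma-voom and every left-out sample. By FDR alone DESeq2 passed 2, Hk2 and Kdm3a, beside 1386 of the 18511 tested genes. Genes past the thresholds numbered 194 with library size only, 358 without a filter, 233 with 1 CPM in 4 samples and 787 in DESeq2. They numbered 291 with the newer quasi-likelihood method, 174 in limma-voom and 116 with the gene length offset. When a sample was left out they numbered 10 to 203. The cause of these differences was not tested.

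Replicate numbers are shared between groups, but same-numbered samples did not deviate together (correlations -0.170, -0.055, 0.079 and -0.067), and not every sample correlated best with its own number. The labels name nothing else that same-numbered samples share, and so few pairs cannot show that nothing is shared. With the replicate block 14 genes passed, also 14 with the gene length offset added, and 0 members.

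With 4 samples per group, small differences cannot be told from the spread. The member median varied between samples with a pooled SD of 0.195 on the log2 scale, which is close to the median difference. Depth does not limit these genes, but shared reads and the unknown strand setting do for those named. Bulk tissue at a single endpoint shows neither cell type nor time course, and mRNA does not show HIF protein or glycolytic flux.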
